A study of Mus musculus with 34 samples.

Results

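Potassium channel genes were taken as every gene symbol made of Kcn, further letters and a closing number that had a count in at least 1 library. The pattern matched 92 symbols, 1 of which had 0 counts throughout, so 91 members of the 24485 symbols in the tables were described. They were measured in 34 libraries from the hippocampus of wild-type mice given the antidepressant fluoxetine or vehicle. The labels' protocols describe RNA pulled down with tagged ribosomes (translating ribosome affinity purification). The libraries were labelled granule cells (4 fluoxetine, 4 vehicle), mossy cells (7 fluoxetine, 6 vehicle) and hippocampus (7 fluoxetine, 6 vehicle). The labels give no dose, duration, age, strain or driver of the ribosome tag. For the hippocampus libraries they name neither the tagged cells nor whether the RNA was pulled down or taken before the pull-down (input). They also do not say that libraries of a group came from separate animals, so p-values measure the spread between these libraries.

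Potassium channels let potassium leave the cell, which repolarises the membrane after a spike and holds it near rest. Voltage-gated pore subunits (Kv, EAG, ERG and Kv7 families) open with depolarisation, calcium- and sodium-activated ones (SK, BK and Slack/Slick) follow ion entry, and inward rectifiers and tandem-pore leak channels set the resting potential. Auxiliary subunits such as the Kv beta proteins and the KChIPs bind the pore subunits and change their trafficking and gating. Granule cells are the principal neurons of the dentate gyrus and mossy cells the excitatory neurons of its hilus.

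In the RefSeq table of gene starts (GRCm38.p6), 66 of the 91 members had 91 windows, of which 45.05% held a GC box (GGGCGG, either strand), against 32.74% of all 32851 windows of the same length. The median GC content was 58.8% in member windows and 52.4% in all windows, and the full cyclic AMP response element TGACGTCA was in 0 member windows against 1.546% of all. The bases upstream of the starts of Kcnh2 and Kcnq5 are shown because both genes were higher in fluoxetine mossy cell libraries, and neither stretch held an annotated exon; GC boxes are in capitals. The Kcnh2 stretch (chr5:24329592-24329841, minus strand) was 73.6% G or C with 3 GC boxes, and lies inside the gene as GENCODE M21 draws it. The Kcnq5 stretch (chr1:21962651-21962900, minus strand) was 44.4% G or C with 0 GC boxes. Counts per gene do not tell starts apart, and a match of letters is a description only.
Kcnh2: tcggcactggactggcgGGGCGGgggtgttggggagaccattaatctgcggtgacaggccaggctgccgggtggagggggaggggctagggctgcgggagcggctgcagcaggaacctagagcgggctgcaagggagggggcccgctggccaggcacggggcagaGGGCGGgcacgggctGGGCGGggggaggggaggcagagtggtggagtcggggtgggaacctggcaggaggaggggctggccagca
Kcnq5: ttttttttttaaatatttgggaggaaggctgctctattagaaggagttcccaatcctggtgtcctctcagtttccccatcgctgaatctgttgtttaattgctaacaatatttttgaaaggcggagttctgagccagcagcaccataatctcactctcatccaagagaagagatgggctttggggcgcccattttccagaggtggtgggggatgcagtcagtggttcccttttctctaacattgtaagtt

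Total counts ran from 14.1 M to 45.0 M per library. Granule cell markers summed to a mean of 1554 CPM (the count divided by the TMM-scaled library size in M counts) in granule cell vehicle libraries. This compares with 355 CPM in mossy cell and 662 CPM in hippocampus vehicle libraries, and all 10 were higher in granule cells than in either. Glial markers remained in granule cell vehicle libraries. Astrocyte markers summed to a mean of 1077 CPM, against 1620 CPM in hippocampus ones, with 3 of 9 lower. Oligodendrocyte markers summed to 640 CPM against 987 CPM, with 4 of 8 lower. Of 8 microglia markers 2 were higher and 1 was lower. Mossy cell markers were higher in mossy cell than in hippocampus vehicle libraries for 7 of 10 genes, such as Calb2 at 324 CPM against 14.3 CPM, and lower for 2 of 10. Markers of inhibitory interneurons were also high in the libraries labelled mossy cells: they summed to 2851 to 4003 CPM in mossy cell vehicle libraries, against 483 to 545 CPM in hippocampus vehicle libraries, and 8 of 9 were higher, Sst among them at 1549 CPM against 65.4 CPM. The name mossy cells is kept here as the label of these libraries. In bulk libraries, fewer cells of a type and less RNA per cell cannot be told apart. The libraries of each source, not only granule cells, have names and a table of their own. In comparisons between sources, the source and that separate set therefore cannot be told apart.

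A count was found in at least 1 library for 84 members in granule cell libraries, 87 in mossy cell libraries and 90 in hippocampus libraries. Mean levels of at least 1 CPM were reached by 67 members in granule cell vehicle libraries, 68 in mossy cell and 69 in hippocampus vehicle libraries, and the 10 most abundant members held 53.0 to 53.4% of all member CPM in these vehicle groups. Divided by exon length, Kcna1, the Kv1.1 pore subunit of axons, led in granule cell vehicle libraries at 58.4 CPM per kb, followed by the KChIP Kcnip2 at 53.0, the leak channel Kcnk1 at 48.7, the Kv beta subunit Kcnab2 at 46.2 and the KChIP Kcnip4 at 45.4 CPM per kb. In mossy cell vehicle libraries Kcnab2 led at 58.4 CPM per kb, ahead of Kcna1 at 26.8 and Kcnip3 at 25.4 CPM per kb. In hippocampus vehicle libraries Kcnab2 stood at 58.6, Kcnip2 at 50.3 and Kcna1 at 48.4 CPM per kb. The plot of levels per kb shows that cytoplasmic auxiliary subunits stood among the most abundant members in all 3 sources.

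**Figure D1:**
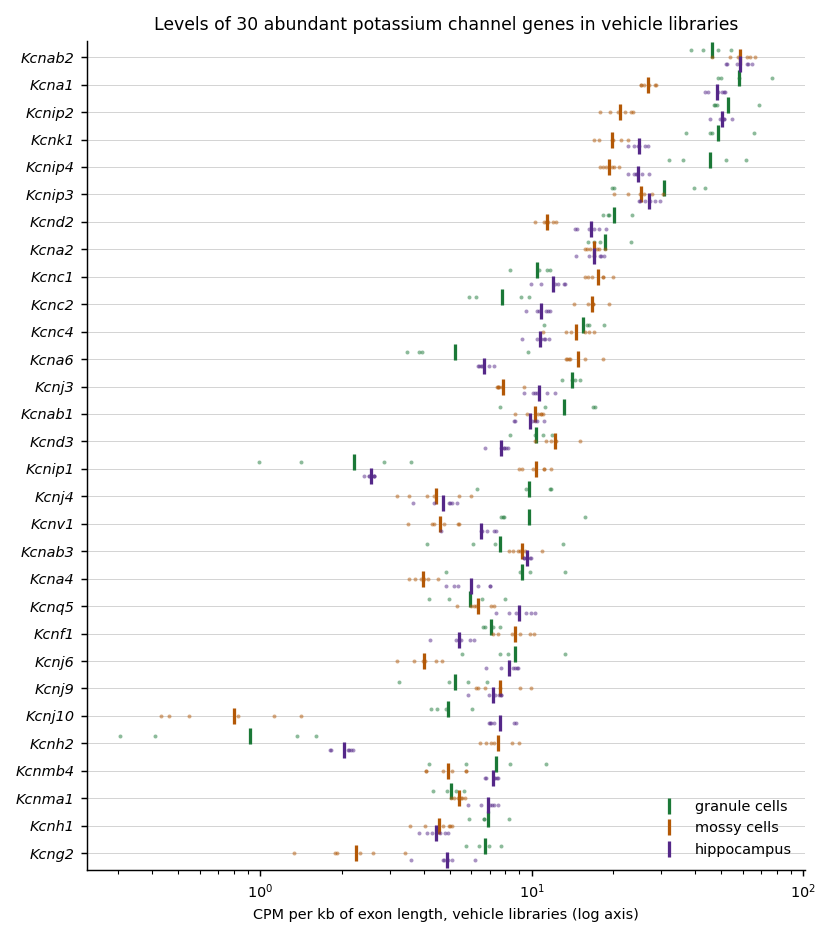
Levels of 30 abundant members in vehicle libraries, in CPM per kb of exon length on a log axis; small points are libraries and ticks are means (granule cells n = 4, mossy cells n = 6, hippocampus n = 6). Kcnab2 stood at 46.2 CPM per kb in granule cell, 58.4 in mossy cell and 58.6 in hippocampus libraries, while Kcna1 stood at 58.4, 26.8 and 48.4 in the same order.

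The effect of fluoxetine was first compared within mossy cells. Of 72 members tested, 8 were higher and 0 lower in fluoxetine libraries (edgeR quasi-likelihood test, Benjamini-Hochberg adjusted p under 0.05 over all genes tested), which is 11.1% of the members tested against 9.31% of all genes (8.05% higher, 1.26% lower). The share called is thus near that of all genes. The members leaned upward, with a positive change in 65 of 72, against 49.6% of all genes, and a median log2 change of 0.29, against -0.00 over all genes; 34 members (47.2%) had an unadjusted p under 0.05, against 23.4% of all genes. Values are given for 6 of the 8, which all code for pore subunits, and 0 of 4 KChIP and 0 of 3 Kv beta genes passed.

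Kcnc1 codes for a Kv3 subunit of the fast delayed rectifier (chr7:46396497-46438704). It ranged from 175 to 234 CPM with a median of 196 in fluoxetine libraries and from 149 to 189 CPM with a median of 166 in vehicle libraries. These groups overlapped, and its change of 0.30 ± 0.0849 (edgeR adjusted p = 0.0320) was 0.08 (adjusted p = 0.526) once GC content and length were corrected.

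Kcnq5 and Kcnq3 code for Kv7 subunits of the M-current, which damps repetitive firing. Kcnq5 (chr1:21398403-21961942) ranged from 52.0 to 100.3 CPM with a median of 60.7 in fluoxetine libraries and from 40.7 to 55.7 CPM with a median of 47.7 in vehicle libraries. The groups overlapped in part, with 5 of 7 fluoxetine libraries above all vehicle libraries and a change of 0.50 ± 0.138 (edgeR adjusted p = 0.0275). Kcnq3 averaged 51.9 ± 9.76 CPM in fluoxetine and 44.7 ± 5.08 CPM in vehicle libraries (SD, n = 7 and 6) and did not pass (edgeR adjusted p = 0.271).

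Kcnh2 codes for the ERG1 pore subunit. It ranged from 42.2 to 70.7 CPM with a median of 61.3 in fluoxetine libraries, against 31.2 to 43.6 CPM with a median of 34.8 in vehicle libraries. All but 1 fluoxetine library lay above all vehicle libraries, and the log2 change was 0.68 ± 0.123 (edgeR adjusted p = 0.00239). Kcnh1, the EAG1 pore subunit (chr1:192190774-192510159), had medians of 49.0 CPM in fluoxetine and 35.4 CPM in vehicle libraries, a change of 0.48 ± 0.139 and an edgeR adjusted p of 0.0339, which was 0.0632 after correction for GC content and length.

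The sodium-activated pore genes moved together in mossy cells. Kcnt1, which codes for Slack (chr2:25863734-25918273), ranged from 21.3 to 34.7 CPM with a median of 26.6 in fluoxetine libraries, against 14.6 to 21.1 CPM with a median of 18.4 in vehicle libraries. All 7 fluoxetine libraries were above all vehicle libraries, with a change of 0.55 ± 0.128 (edgeR adjusted p = 0.0103). Kcnt2, which codes for Slick (chr1:140246158-140612067), ranged from 11.8 to 23.2 CPM with a median of 17 in fluoxetine and from 8.16 to 12.3 CPM with a median of 10.6 in vehicle libraries, and its change was 0.64 ± 0.166 (edgeR adjusted p = 0.0188) with 5 of 7 libraries above all vehicle libraries. Kcnt2 shares exon bases with another gene of the tables, and since no strand setting is given, its reads cannot be told apart from that gene's.

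**Figure D2:**
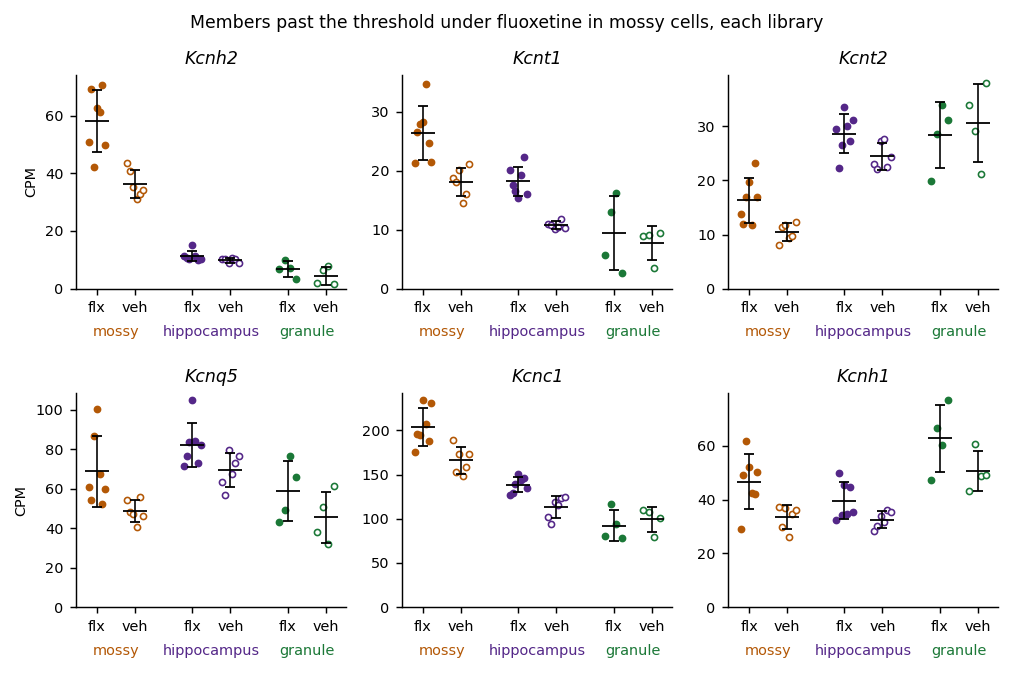
CPM in each library for 6 of the members past the threshold under fluoxetine in mossy cells, shown for fluoxetine (flx, filled) and vehicle (veh, open) in each source, with mean and SD bars in black. Kcnh2 lay at 42.2 to 70.7 CPM in fluoxetine mossy cell libraries and at 31.2 to 43.6 CPM in vehicle ones.

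How many members passed in mossy cells turned on single libraries. The count was 18 without fluoxetine library 1 (12.3% of all genes passed) and 13 without fluoxetine library 7 (11.2% of all genes). It was 5 without fluoxetine library 4 (6.57%), 5 without vehicle library 2, 3 or 6 (5.96%, 5.84% and 5.99%), and 4 without vehicle library 4 (5.39%). Of the 13 fits that left out 1 library, Kcnh2 and Kcnt1 passed in 13, Kcnt2 in 12, Kcnq5 in 7, Kcnc1 in 6 and Kcnh1 in 5. Without vehicle libraries 1, 2 and 4 the count was 0 of 75 (0.19% of all genes), and without vehicle libraries 3, 5 and 6 it was 1 of 75 (0.699% of all genes), so calls fell over all genes as well. Markers of neurons changed in the same comparison: 2 of 6 CA3 pyramidal markers (sum 444 ± 145 CPM in fluoxetine and 271 ± 20.5 CPM in vehicle libraries, SD, n = 7 and 6), 3 of 10 mossy cell markers and 1 of 7 CA1/CA2 markers were higher, 1 of 10 granule cell markers was lower, and of 9 interneuron markers 1 was higher and 1 lower. Of other cell types, 4 of 6 tested microglia, 2 of 9 astrocyte, 1 of 8 oligodendrocyte and 1 of 4 oligodendrocyte precursor markers were higher and 1 of 2 tested choroid plexus markers was lower, the astrocyte sum running from 427 to 1393 CPM in fluoxetine and from 374 to 532 CPM in vehicle libraries; their part in these results was not tested.

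In hippocampus libraries more members passed, as did more genes in all. Of 79 members tested, 24 were higher and 5 lower in fluoxetine libraries, 36.7% against 30.2% of all genes (15.5% higher, 14.7% lower). The share higher, 30.4%, was above that of all genes and the share lower, 6.33%, below it. The change was positive in 64 of 79 members, with a median of 0.19 against 0.00 over all genes, and 41 (51.9%) had an unadjusted p under 0.05, against 42.1% of all genes. Higher members included 2 of 3 tested SK genes, 4 of 9 tested tandem-pore genes, 3 of 6 tested Kv1 genes and 4 of 14 tested inward rectifiers, while 2 of 3 Kv beta genes and 1 of 4 KChIPs were lower.

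Without vehicle libraries 1, 2 and 4, which held most choroid plexus marker RNA and were left out after the data had been seen, 7 members passed, all among the 29, against 6.48% of all genes (3.97% higher, 2.51% lower). Among them Kcnt1, Kcnn2, Kcnj9 and Kcnh3 were higher and Kcnab1 was lower. In that fit the change was positive in 60 of the 79 members that were also tested with all libraries. In the fit corrected for GC content and length 14 members were higher and 5 lower, 18 of them among the 29, against 27.9% of all genes (13.6% higher, 14.3% lower).

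Kcnt1 had the smallest p in hippocampus. It ranged from 15.4 to 22.3 CPM with a median of 17.6 in fluoxetine libraries, against 10.1 to 11.9 CPM with a median of 10.6 in vehicle libraries, with no overlap, a log2 change of 0.76 ± 0.0916 and an edgeR adjusted p of 0.000169. Kcnn2, the SK2 pore subunit of calcium-activated channels in spines, had medians of 42.3 CPM in fluoxetine and 29.8 CPM in vehicle libraries (change 0.56 ± 0.0902, edgeR adjusted p = 0.000766). All 7 fluoxetine libraries were above all vehicle libraries for both genes.

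Kcnj9 codes for GIRK3, a G-protein-gated inward rectifier subunit (chr1:172320501-172329318). Its level was 34.5 to 48.4 CPM in fluoxetine libraries, against 24.9 to 33.1 CPM in vehicle libraries, a change of 0.46 ± 0.0821 (edgeR adjusted p = 0.00126). Kcnh3, an ELK pore gene (chr15:99224861-99242817), was at 24.1 to 38.5 CPM in fluoxetine libraries and 13.1 to 23.6 CPM in vehicle libraries (change 0.56 ± 0.121, edgeR adjusted p = 0.00373). Kcnn2, Kcnh3, Kcnd3, Kcnip4 and Kcnj13, all past the threshold in hippocampus, also share exon bases with another gene of the tables, whose reads cannot be told apart from theirs. Smaller changes were found for Kcnma1, the BK pore gene (0.28), Kcnj6, which codes for GIRK2 (0.23), and the Kv1 genes Kcna1 (0.15) and Kcna2 (0.16), each higher in fluoxetine libraries. Kcna1 was past the threshold in 6 and Kcna2 in 4 of the 13 fits that left out 1 library.

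The members lower in fluoxetine hippocampus libraries were auxiliary subunits, except Kcnj13. Kcnip4, a KChIP of Kv4 channels, ranged from 56.9 to 88.9 CPM with a median of 72.2 in fluoxetine libraries and from 82.3 to 98.6 CPM with a median of 88.1 in vehicle libraries (change -0.31 ± 0.0801, edgeR adjusted p = 0.00952). Kcnab3, a Kv beta subunit, was at 20.4 to 26.4 CPM in fluoxetine libraries and at 26.8 to 28.5 CPM in vehicle libraries, with no overlap (change -0.23 ± 0.0681, edgeR adjusted p = 0.0182). Kcnab1, also a Kv beta subunit, had medians of 72.6 CPM in fluoxetine and 87.3 CPM in vehicle libraries and overlapping groups (change -0.24 ± 0.0801, edgeR adjusted p = 0.0322). Kcnab1 passed in 6 of the 13 fits that left out 1 library, and Kcnab3 and Kcnip4 in 13, but those genes were not past the threshold without vehicle libraries 1, 2 and 4.

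**Figure D3:**
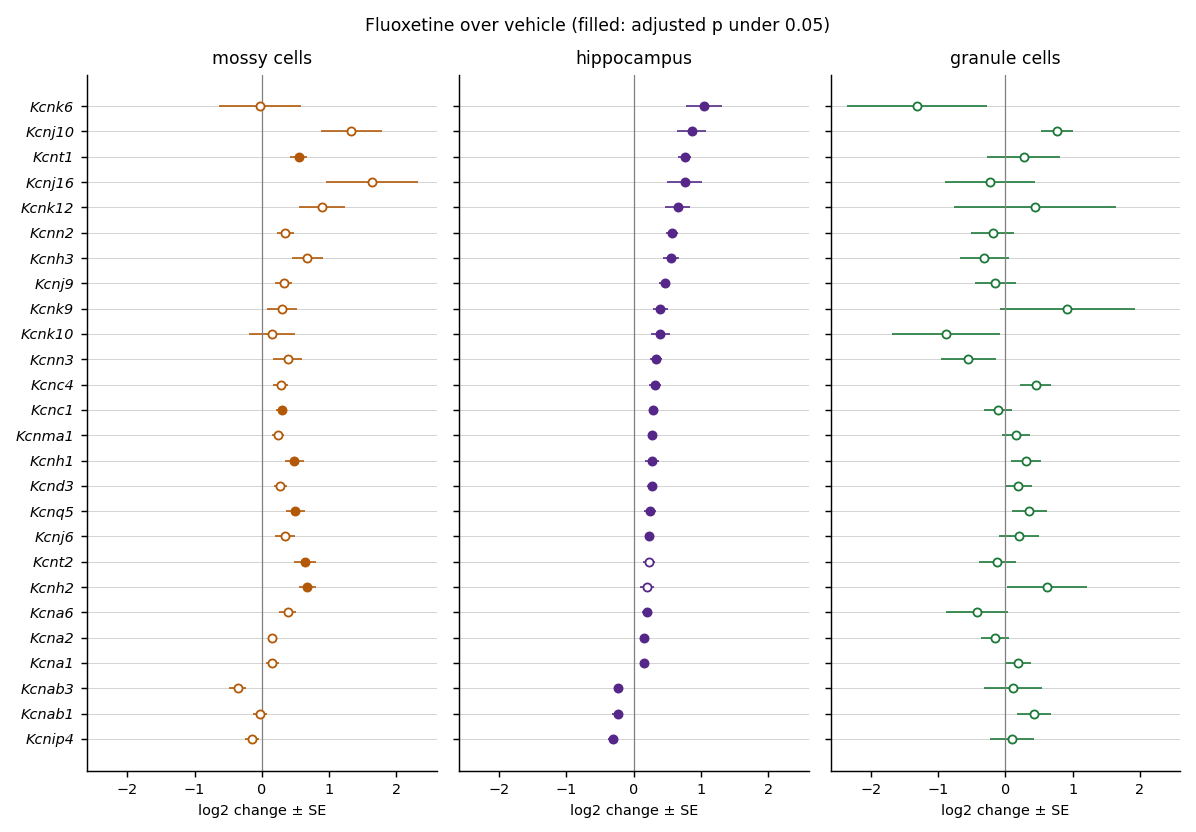
Log2 change of fluoxetine over vehicle with its SE in each source, for 26 members past the threshold in mossy cells or hippocampus, ordered by the hippocampus change. Filled points have an adjusted p under 0.05. Kcnj13 and Kcne2, both lower in fluoxetine hippocampus libraries, and members with values not reported here are not drawn. Most points lie right of 0 in mossy cells and hippocampus, and 0 points are filled in granule cells.

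Inward rectifiers of glia and choroid plexus moved beside the markers of those cells. Kcnj10 codes for Kir4.1, the main potassium-buffering channel of astrocytes (chr1:172341210-172374085), and ranged from 51.0 to 160.4 CPM with a median of 59.0 in fluoxetine hippocampus libraries, against 37.7 to 47.4 CPM with a median of 38.7 in vehicle ones. All 7 fluoxetine libraries were above all vehicle libraries, and the change was 0.86 ± 0.214 (edgeR adjusted p = 0.00728). It was past the threshold in each of 13 fits that left out 1 library, with changes of 0.57 to 0.94; without vehicle libraries 1, 2 and 4 the change was 0.99 and the adjusted p 0.0544. Its partner Kcnj16, which codes for Kir5.1, had medians of 6.87 CPM in fluoxetine and 5.22 CPM in vehicle libraries, with overlap (change 0.76 ± 0.257, edgeR adjusted p = 0.0337, past the threshold in 7 of 13 such fits). Astrocyte markers summed to 1871 to 5794 CPM in fluoxetine and 1449 to 1783 CPM in vehicle libraries, with 7 of 9 markers higher, and fluoxetine library 4 had the highest sum as well as the highest Kcnj10 and Kcnj16; 8 of 8 microglia markers were also higher. The part of astrocyte content in these 2 changes was not tested.

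Kcnj13, which codes for Kir7.1 (chr1:87386363-87394729), and Kcne2, a single-pass auxiliary subunit (chr16:92292389-92298129), are both known from the choroid plexus. Kcnj13 was at 0.898 to 1.55 CPM in fluoxetine hippocampus libraries, against 0.454 to 14.6 CPM in vehicle ones, so that the fluoxetine range lay inside the vehicle range (change -2.24 ± 0.552, edgeR adjusted p = 0.00702). Kcne2 was at 0 to 0.672 CPM in fluoxetine and at 0 to 10.2 CPM in vehicle libraries (change -3.75 ± 0.966, edgeR adjusted p = 0.00871). The high vehicle values were those of libraries 1, 2 and 4, at 10.3, 14.6 and 4.37 CPM for Kcnj13 and 6.61, 10.2 and 2.93 CPM for Kcne2. The same libraries held 3602, 5330 and 1455 CPM of choroid plexus markers, against 20.9 to 109 CPM in fluoxetine libraries. Without them the changes were 0.06 for Kcnj13 (adjusted p = 0.928) and 0.83 for Kcne2 (adjusted p = 0.604), so both signs turned.

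**Figure D4:**
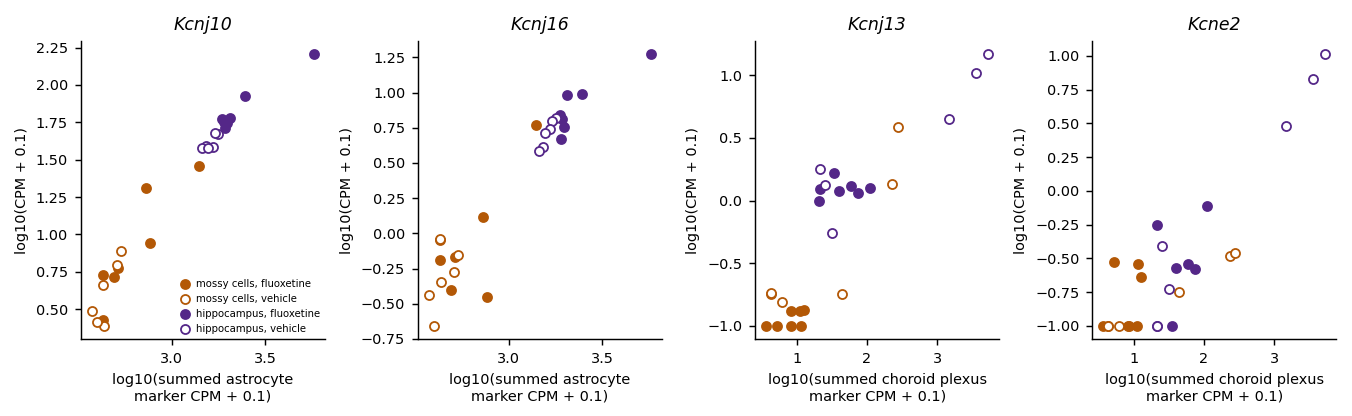
Levels of Kcnj10, Kcnj16, Kcnj13 and Kcne2 in each mossy cell and hippocampus library against the summed markers of astrocytes or choroid plexus, both as log10(CPM + 0.1). Filled points are fluoxetine and open points vehicle libraries; the 3 hippocampus vehicle libraries with 1455 to 5330 CPM of choroid plexus markers hold the highest Kcne2.

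In granule cells 0 of 71 members passed, as did 0.0% of all genes; 1 member, 1.41%, had an unadjusted p under 0.05, against 7.42% of all genes, and DESeq2 called 0. That member was Kcnj10, at 37.0, 44.6, 41.6 and 58.9 CPM in fluoxetine libraries, against 23.1, 24.3, 26.1 and 32.8 CPM in vehicle libraries. The groups did not overlap, with a change of 0.77 ± 0.242 (unadjusted p = 0.00675, edgeR adjusted p = 0.467), and astrocyte markers summed to 1634 ± 198 CPM in fluoxetine and 1077 ± 79.0 CPM in vehicle libraries (SD, n = 4 each). Among the genes higher in mossy cells, Kcnh2 changed by 0.62 (edgeR adjusted p = 0.83), Kcnq5 by 0.35 (0.769) and Kcnt1 by 0.27 (0.935) in granule cells. Not all of them leaned upward there. Kcnc1 was at 81.1, 116.2, 94.3 and 77.8 CPM in fluoxetine and 110.3, 107.4, 79.0 and 101.0 CPM in vehicle granule cell libraries. Of 4 BK and sodium-activated genes tested in granule cells 2 had a positive change, and of all 71 members tested 38 did.

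Whether the fluoxetine effect differed between sources was tested as an interaction. For mossy cells minus hippocampus 0 of 80 members passed (0.044% of all genes did), 7 had an unadjusted p under 0.05 (8.75%, against 11.2% of all genes) and DESeq2 called 0. For Kcnh2 that difference was 0.50 ± 0.16 (unadjusted p = 0.00368, edgeR adjusted p = 0.235). Its own changes were 0.68 in mossy cells and 0.19 in hippocampus, where it averaged 11.3 ± 1.83 CPM in fluoxetine and 9.85 ± 0.84 CPM in vehicle libraries (SD, n = 7 and 6). For granule cells minus mossy cells 0 of 78 passed (0.181% of all genes did), and 20 had an unadjusted p under 0.05 (25.6%, against 13.9% of all genes). DESeq2 called 2 members there, for which no share of all genes is given here.

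For granule cells minus hippocampus 3 of 80 members passed, 2 with a positive and 1 with a negative difference, against 1.98% of all genes (1.12% positive, 0.868% negative). An unadjusted p under 0.05 was found for 21 members (26.2%), against 19.8% of all genes. Those described here rest on few counts. Kcnj5 (GIRK4) had 12, 39, 57 and 0 counts in fluoxetine and 0, 0, 2 and 0 counts in vehicle granule cell libraries, against sums of 172 counts in fluoxetine and 152 counts in vehicle hippocampus libraries (edgeR adjusted p = 0.0406). Kcnj8, an ATP-sensitive inward rectifier of mural cells, summed to 4 counts in fluoxetine and 121 counts in vehicle granule cell libraries (edgeR adjusted p = 0.0391). Neither gene passed with limma-voom, among genes with a mean of at least 1 CPM, with the replicate number as a block (adjusted p = 0.641 for Kcnj5 and 0.693 for Kcnj8), or without hippocampus vehicle libraries 1, 2 and 4.

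Levels were then compared between sources in vehicle libraries. Between mossy cells and hippocampus 22 of 80 members were higher and 34 lower, 70.0% against 64.0% of all genes (31.3% higher, 32.8% lower). Upper quartile scaling moved the median of all genes to -0.16 and gave 19 and 35 members, beside 4166 higher and 6040 lower among all 15922 genes tested. Kcnip1, a KChIP, was at 55.5 to 73.4 CPM in mossy cell libraries with a median of 65.9, against 15.0 to 16.3 CPM with a median of 16.0 in hippocampus libraries (change 2.02 ± 0.12, edgeR adjusted p = 1.03e-14). Kcnh2 was at 31.2 to 43.6 CPM in mossy cell and 8.73 to 10.6 CPM in hippocampus libraries (change 1.88 ± 0.121). The Kv1 genes Kcna3 and Kcna6 averaged 12.7 ± 2.52 and 87.8 ± 11.7 CPM in mossy cell libraries, against 3.63 ± 0.925 and 39.7 ± 2.13 CPM in hippocampus libraries (SD, n = 6 each), and Kcnj5 averaged 8.27 ± 2.07 CPM against 0.615 ± 0.242 CPM.

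All 6 mossy cell libraries lay above all hippocampus libraries for these 5 genes. The BK auxiliary gene Kcnmb2 was also higher, at 10.2 ± 2.04 CPM against 3.43 ± 1.004 CPM. So were the Kv3 genes Kcnc1 (change 0.55) and Kcnc2 (0.62), while of all 4 Kv3 genes tested 3 were higher and 1 was lower. The part of the interneuron markers given above in these differences was not tested. Lower in mossy cells were Kcnj10, at 4.34 ± 2.17 CPM against 41.2 ± 4.52 CPM, and Kcnj16, at 0.431 ± 0.248 CPM against 5.15 ± 1.12 CPM, beside 9 of 9 astrocyte markers that were lower; their part was not tested. Also lower were the strong inward rectifier Kcnj2 (-1.34), the leak channel Kcnk2 (-1.28), the ERG gene Kcnh7 (-1.27) and the KChIP Kcnip2, at 73.5 ± 7.76 CPM against 175 ± 10.04 CPM. Kcnj13 was lower by the test (-2.65), but was at -0.38 (adjusted p = 0.735) without hippocampus vehicle libraries 1, 2 and 4.

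**Figure D5:**
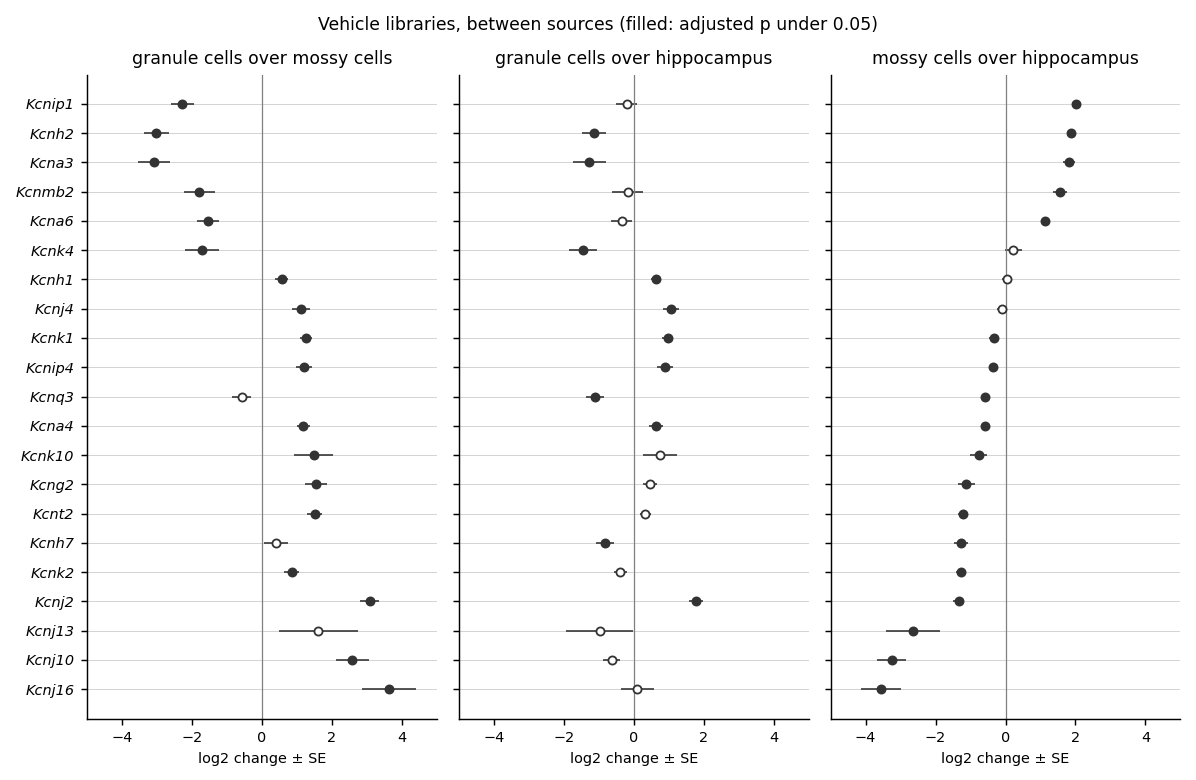
Log2 change with its SE between sources in vehicle libraries for 21 members among those with the largest changes, where filled points have an adjusted p under 0.05. Kcnj5, Kcnj14 and Kcnh4, whose changes were also large, and members with values not reported here are not drawn. Kcnip1, Kcnh2 and Kcna3 were higher in mossy cells than in hippocampus and lower in granule cells than in mossy cells, and Kcnj2 was higher in granule cells than in either.

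Between granule cells and mossy cells 24 of 78 members were higher and 25 lower, 62.8% against 46.1% of all genes (23.8% higher, 22.4% lower). Kcnj2, which codes for Kir2.1, was at 47.6, 38.2, 26.0 and 24.8 CPM in granule cell libraries, against 2.21 to 5.31 CPM with a median of 4.05 in mossy cell libraries (change 3.07 ± 0.27, edgeR adjusted p = 1.51e-09). Kcnk1, the leak channel TWIK1, was at 102, 103, 83.1 and 147 CPM in granule cell libraries and at 37.9 to 50.7 CPM with a median of 44.5 in mossy cell libraries (change 1.26 ± 0.176, edgeR adjusted p = 2.16e-06). Kcna1 (change 1.08), Kcnip2 (1.29), Kcnip4 (1.19) and Kcnt2 (1.51) were also higher, with all 4 granule cell libraries above all 6 mossy cell libraries. So were Kcnj10 (2.58) and Kcnj16 (3.62), beside 6 of 9 astrocyte markers that were higher; their part was not tested. Kcng2, a silent subunit that modifies Kv2 channels, was higher (1.54), but its difference was 0.13 (adjusted p = 0.753) between the fluoxetine libraries of these sources, and that of the leak channel Kcnk10 was 1.47 in vehicle and 0.43 (adjusted p = 0.531) in fluoxetine libraries.

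Kcnh2 was at 1.99, 6.60, 7.76 and 1.47 CPM in granule cell libraries, against 31.2 to 43.6 CPM in mossy cell libraries (change -3.03 ± 0.355, edgeR adjusted p = 1.61e-07). Kcnip1 was at 17.8, 8.79, 6.16 and 22.2 CPM in granule cell libraries and at 55.5 to 73.4 CPM in mossy cell libraries (change -2.28 ± 0.333, edgeR adjusted p = 3.94e-06). Kcna3 was at 0.199, 2.65, 2.28 and 0.758 CPM in granule cell libraries, against 9.32 to 16.4 CPM in mossy cell libraries (change -3.09 ± 0.462). Kcnj5 had 2 counts in all 4 granule cell libraries together, against 1662 counts in the 6 mossy cell libraries. Kcnj14 (-2.97), an inward rectifier, was lower at means under 2 CPM. In the same contrast 8 of 9 interneuron markers were lower in granule cells and 1 was higher, and their part in these differences was not tested.

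Between granule cells and hippocampus 13 of 80 members were higher and 16 lower, 36.2% against 29.7% of all genes (16.5% higher, 13.2% lower). With upper quartile scaling, which moved the median of all genes to -0.12, the counts were 8 and 20. That scaling gave 1905 higher and 2822 lower among all 16124 genes tested. Without hippocampus vehicle libraries 1, 2 and 4 the member counts were 4 and 9, for which no share of all genes is given here. Kcnj2 (1.77), Kcnk1 (0.97), Kcnj4 (1.05), another strong inward rectifier, Kcnh1 (0.64), Kcnip4 (0.89) and Kcna4 (0.64), an A-type Kv1 subunit, were higher in granule cells. The Kv7 genes Kcnq3, at 30.5 ± 15.8 CPM against 66.6 ± 3.90 CPM, and Kcnq5, at 45.5 ± 12.97 CPM against 69.4 ± 8.57 CPM, were lower in granule cells (SD, n = 4 and 6). Kcnh2 (-1.13), Kcna3 (-1.27), the leak channel Kcnk4 (-1.45), the ELK gene Kcnh4 (-2.67) and Kcnj14 (-2.82) were lower too, Kcnh4 and Kcnj14 at means under 2 CPM. Kcnh2 and Kcna3 did not pass without hippocampus vehicle libraries 1, 2 and 4 (adjusted p = 0.103 and 0.0895) or between the fluoxetine libraries (-0.71 and -0.91).

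Proteins that bind or flank potassium channels were counted from a list of 21 partner genes. In mossy cells 7 of 19 tested were higher in fluoxetine libraries and 0 lower (8.05% of all genes were higher), in hippocampus 9 of 20 were higher and 0 lower (15.5% of all genes were higher), and in granule cells 0 of 18 passed (0.0% of all genes). Cntnap1, an axonal adhesion protein beside Kv1 clusters, averaged 224 ± 39.7 CPM in fluoxetine and 136 ± 16.9 CPM in vehicle mossy cell libraries (SD, n = 7 and 6). Its change was 0.72 in mossy cells (edgeR adjusted p = 0.00114) and 0.47 in hippocampus. In granule cell libraries, where 0 of 18 partners passed, Cntnap1 was at 158 to 183 CPM under fluoxetine and 69.2 to 123 CPM under vehicle. The median log2 change of the 18 partners there was 0.26. Dpp6, the transmembrane partner of Kv4 channels, changed by 0.56 in mossy cells and 0.31 in hippocampus, Amigo1, a Kv2 partner, by 0.43 and 0.29, and Hcn2, a pacemaker channel, by 0.74 and 0.48. Of 14 genes upstream of GIRK channels, 3 were higher and 1 lower in mossy cells (8.05% and 1.26% of all genes). In hippocampus 3 were higher and 3 lower (15.5% and 14.7% of all genes). The GABA-B receptor genes Gabbr1 (0.50 in mossy cells, 0.31 in hippocampus) and Gabbr2 (0.66 and 0.41) and the adenosine receptor Adora1 (0.64 and 0.25) were higher. The GABA-B auxiliary subunit gene Kctd12 was lower in both (-0.39 and -0.26), and Gnai1 (-0.33) and Gnb5 (-0.21) were lower in hippocampus. Htr1a, a serotonin receptor that opens GIRK channels, averaged 22.1 ± 7.65 CPM in fluoxetine and 20.7 ± 1.12 CPM in vehicle mossy cell libraries (edgeR adjusted p = 0.812).

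Together, the members took 0.288 ± 0.0230% of counts in fluoxetine and 0.259 ± 0.0139% in vehicle mossy cell libraries, 0.379 ± 0.0148% and 0.328 ± 0.0229% in fluoxetine and vehicle hippocampus libraries, and 0.346 ± 0.0210% and 0.347 ± 0.0228% in fluoxetine and vehicle granule cell libraries (SD). These shares describe the set and carry no test. Of the 24 members higher in hippocampus and the 8 higher in mossy cells, 6 were in both (25% and 75% of each list), among them Kcnc1, Kcnh1, Kcnq5 and Kcnt1. Libraries of the same number deviated together in the 2 sources, so these counts are not independent.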

How the data were processed

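RNA was measured in 34 libraries in 6 groups, set by the labels' cell type and treatment. Per the labels' protocols, ribosome-bound RNA was purified, cDNA was made from 500 pg by an amplifying kit, and 50 bp pairs were sequenced. The submitters' processing notes name the GRCm38 build, the aligner STAR 2.5.2b, the counter HTSeq 0.7.2, and edgeR; annotation, strand setting and handling of reads with several alignments are not given in the sources used here. The deposited values are raw counts per gene symbol, which the authors made in 3 tables. Counts are not independent molecules, and total counts of 14.1 M to 45.0 M set the precision.

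Each fluoxetine comparison was fitted within its 2 groups, and interactions and contrasts between sources within the 4 groups of a pair of sources (edgeR 4.0.16 in R 4.3.3: TMM, filterByExpr, glmQLFit, glmQLFTest, two-sided), with Benjamini-Hochberg adjustment over all genes tested and a threshold of 0.05. Fits were tested on simulated data. CPM uses TMM sizes over all 34 libraries, and GENCODE M21 gave positions and exon lengths; all 91 members matched. The members, gene lists and tests were chosen with earlier results of these data known. Named genes were up to 8 members per direction past the threshold by smallest p under fluoxetine and for interactions, the 6 per direction with the largest change between sources at a mean of at least 1 CPM, and members and partners named by role. Of the members, 28 share exon bases with another gene, 10 with a gene of the tables; with the strand setting unknown, such reads cannot be told apart. Values of some members are not reported here; all members remain in the counts.

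Alternatives were DESeq2 1.42.0, limma-voom (limma 3.58.1), other scalings and filters, leaving out Rn45s and Lars2, a GC content and length offset, each library left out, subsets of libraries and the replicate number as a block. Same-numbered libraries deviated together (every correlation over 0.1) for granule cell fluoxetine with vehicle (0.135 to 0.330), and for mossy cells with hippocampus within fluoxetine (0.116 to 0.623) and vehicle (0.212 to 0.410); the labels give the numbers but no source of the pairing. In other pairs of groups they did not.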

Additional observations from a re-analysis of the deposited data

Results flagged for a closer look

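Among 54 gene and group pairs examined, 2 held a library far from the rest of its group, and chance gives about 1 in 20. Kcnh3 was at 13.1 CPM in hippocampus vehicle library 2, low beside the others. Kcnj5 was at 0.0470 CPM in granule cell vehicle library 3, where it had 2 counts and the other 3 libraries had 0.

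The fluoxetine effect differed between granule cells and hippocampus by the interaction test for Kcnj5 and Kcnj8: the differences were 5.15 for Kcnj5 and -5.23 for Kcnj8 on the log2 scale. Both rest on few counts in granule cells, 108 in fluoxetine and 2 in vehicle libraries for Kcnj5, and 4 and 121 for Kcnj8. Granule cell fluoxetine and vehicle libraries of the same number deviated together, though the labels do not say that numbers pair libraries. Neither call held with the replicate number as a block (edgeR adjusted p = 0.641 and 0.693). Over 30 other settings, including each library left out, Kcnj5 lost the threshold in 21 and Kcnj8 in 19.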

How the results depend on the processing

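Counts of members past the threshold stayed within 1.5 times, except as follows. In mossy cells under fluoxetine the count of 8 was 14 with DESeq2 (13.1% of all genes passed, against 9.31% in the main fit). It was 0 without vehicle libraries 1, 2 and 4 (0.19%) and 1 without vehicle libraries 3, 5 and 6 (0.699%). With each library left out it was 4 to 18 (5.39% to 12.3%). In hippocampus, where 30.2% of all genes passed in the main fit, the count of 29 was 19 with the GC content and length offset (27.9%). It was 7 without vehicle libraries 1, 2 and 4 (6.48%), and 22 to 28 with each library left out (22% to 32.6%). The interaction of granule cells minus mossy cells gave 2 with DESeq2 and 0 to 5 with each library left out (5 without granule cell fluoxetine library 2). For granule cells minus hippocampus the count of 3 was 1 with no filter, 0 at a mean of at least 1 CPM, 7 with DESeq2, 0 with limma-voom, 0 with the replicate block, 0 without hippocampus vehicle libraries 1, 2 and 4, and 0 to 14 with each library left out. Granule cells against hippocampus gave 8 with the replicate block, 13 without those 3 libraries, and 25 to 36 with each left out, against 29. Other ranges with each library left out were 52 to 57 (mossy cells against hippocampus) and 40 to 51 (granule against mossy cells), and 0 in granule cells under fluoxetine and for mossy cells minus hippocampus. The causes were not tested, and fewer libraries and fewer genes tested are part of several settings. Where no share of all genes is given, a changed count cannot be read as particular to the members. Leaving out hippocampus vehicle libraries 1, 2 and 4 was chosen after seeing the data, and turned Kcnj13 to 0.0565 and Kcne2 to 0.827. Relative to the vehicle mean, the fluoxetine difference in the members' mean share of counts was -0.451% in granule cells and 11.1% in mossy cells. On TMM-scaled sizes it was 2.71% and 19.7%. In hippocampus the mean shares in fluoxetine and vehicle libraries were 0.379% and 0.328% of counts, and 0.349% and 0.305% of TMM-scaled sizes.

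With the replicate block the comparison of mossy cells with hippocampus gave 57 against 56 (Kcng3 added, edgeR adjusted p = 0.0356, named after its values were seen). The block changed no call in granule cells under fluoxetine or for mossy cells minus hippocampus. Granule cells minus hippocampus, where same-numbered libraries deviated together only within granule cells, lost all 3 calls with it, as given above. Where same-numbered libraries did not all deviate together, the block gave 7 in mossy cells (7.7% of all genes), 26 in hippocampus (30.8%) and 35 for granule against mossy cells. Between the fluoxetine libraries of 2 sources the counts were 53 (mossy cells against hippocampus), 44 (granule against mossy cells) and 36 (granule cells against hippocampus). Over all genes, 5726 were higher and 5436 lower of 15922 for mossy cells against hippocampus. For granule against mossy cells these were 3999 and 3830 of 15444, and for granule cells against hippocampus 3491 and 2978 of 16124. For single genes, 630 values kept direction and side, 77 lost the threshold and 2 reversed under settings other than single libraries left out; with each library left out 1037 kept both and 113 lost the threshold.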
